A study of Mus musculus with 6 samples.

Results

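The 10 genes described here are the transcription factor gene Nfe2l2, which encodes NRF2, and 9 genes of antioxidant defence: Nqo1, Hmox1, Gclc, Gclm, Txnrd1, Srxn1, Prdx1, Gpx3 and Sod2. They were picked by symbol through their Ensembl identifiers, and all 10 were found among the 56847 gene IDs of the deposited tables. RNA from mouse liver had been sequenced in 6 libraries, 3 from mice on CDAHFD, which lacks choline, has a defined amino acid content, is rich in fat and is used to produce steatohepatitis and fibrosis, and 3 from mice on a normal diet (ND). The series concerns ALDH18A1 in metabolic dysfunction-associated steatohepatitis, and its libraries differ by diet, with no genetic change named for either group. The sources used here give no strain, sex, age or time on diet. They also do not say whether the 3 libraries of a diet are separate animals, so the p-values below measure only the spread between these samples, which may be technical.

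NRF2 is held in the cytoplasm and marked for degradation by KEAP1 together with the CUL3 ubiquitin ligase. Oxidants and electrophiles modify KEAP1, NRF2 then accumulates, pairs with a small MAF protein and binds antioxidant response elements near genes for glutathione synthesis, thioredoxin-dependent reduction, quinone and heme handling and NADPH supply. BACH1 occupies many of the same elements as a repressor. Because much of this control acts on the protein, the Nfe2l2 transcript is not a readout of NRF2 activity. Sod2 and Gpx3 belong to antioxidant defence more broadly and are less tied to NRF2 than Nqo1, Srxn1, Gclc or Gclm.

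The letters that NRF2 and a small MAF protein read are shown first, for those of the 10 genes whose promoter window held them. The element's core was searched as TGACNNNGC on both strands in RefSeq promoter windows of build GRCm38.p6, from 250 bases before to 50 bases after each gene's start. The table held windows for 8 of the 10 genes, all but Hmox1 and Gclc, and 5 of the 8 held the core. Of all 27025 genes with windows of the same length, 3781 held it in at least 1 window, as did 16 of the 79 genes with a window in the wider pathway lists described below and 4 of 25 in their list of other NRF2 targets. Counted by window, the share was 12.4% of 32851. The stretches below run 5′ to 3′ on the sense strand of the gene, with the 9 core bases in capitals.
Nfe2l2: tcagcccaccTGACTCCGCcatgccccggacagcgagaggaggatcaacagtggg
Gclm: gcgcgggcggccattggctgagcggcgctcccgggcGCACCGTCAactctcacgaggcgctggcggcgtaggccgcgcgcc
Txnrd1: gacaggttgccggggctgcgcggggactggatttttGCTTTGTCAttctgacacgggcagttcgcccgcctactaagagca
Prdx1: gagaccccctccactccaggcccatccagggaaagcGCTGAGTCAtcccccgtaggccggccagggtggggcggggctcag
Srxn1: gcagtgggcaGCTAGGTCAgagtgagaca
The Nfe2l2 stretch lies at chr2:75704859-75704913 on the minus strand, with the core 240 bases upstream of the start and on the sense strand. The other cores lie on the antisense strand. The Gclm stretch is chr3:122245387-122245467, with the core 134 bases upstream. The Txnrd1 stretch is chr10:82859078-82859158, with the core 92 bases upstream of its start, in 1 of the 3 windows listed for this gene. The Prdx1 stretch is chr4:116685430-116685510, with the core 133 bases upstream, and its core also holds the AP-1 letters TGACTCA, which were present in 5.2% of all windows. The Srxn1 stretch is chr2:152105542-152105570, with the core 28 bases downstream of the start. The windows of Nqo1, Gpx3 and Sod2 did not hold these letters, which says nothing about elements farther away. A match is a description of the letters, not a measured binding site.

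Total counts ran from 21986215 to 25628531 per library, and all 10 genes passed the filter on low counts, their smallest count being 84. With edgeR's quasi-likelihood test on 14215 genes, 52.1% had an adjusted p under 0.05, 28.5% as higher and 23.5% as lower on CDAHFD. Among the 10 genes, 4 were higher (Nqo1, Hmox1, Srxn1 and Gpx3), 2 were lower (Prdx1 and Sod2), and Nfe2l2, Gclc, Gclm and Txnrd1 did not pass. The total of 6 passing genes is thus close to the share of all genes. The 4 genes that rose did so by at least 2-fold, which held for 18.4% of all genes tested. In the same 4 genes every CDAHFD library lay above every ND library, as in 32.2% of all genes, and in 3 (Gclm, Prdx1 and Sod2) every CDAHFD library lay below, as in 28.4%. The median log2 change of the 10 genes was 0.15, beside 0.01 over all genes tested.

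Transcripts that mark other liver cell types differed between the diets. Of 10 macrophage markers 9 rose, with a summed level of 2407 to 2550 TPM in CDAHFD livers and 398 to 541 TPM in ND livers. All 8 stellate and fibroblast markers rose (555 to 670 TPM in CDAHFD livers, 97.8 to 119 TPM in ND livers), as did all 5 cholangiocyte markers (283 to 369 TPM, against 38.3 to 42.3 TPM in ND livers) and all 5 T cell markers (19.3 to 29.8 TPM, against 3.18 to 4.11 TPM). Most of the cholangiocyte sum came from 1 gene, Spp1, at 302 ± 38.9 TPM in CDAHFD livers and 35.5 ± 1.02 TPM in ND livers. Of 8 hepatocyte markers 7 fell with TMM, 5 with total counts and 3 with either TPM fit, where 3347, 1147 and 897 of 14215 genes fell. The sums of the hepatocyte markers were 129200 to 139531 TPM in CDAHFD livers and 139629 to 157718 TPM in ND livers. Most of these sums came from 1 gene, Alb, at 97549 ± 4283 TPM in CDAHFD livers and 104935 ± 10569 TPM in ND livers, which overlap. Of 7 endothelial markers 2 rose, of 4 B cell markers 2 rose, and of 4 erythroid markers 1 fell. Of 5 neutrophil markers the 2 that were tested rose. Mpo, too low to be tested, had 0 counts in every ND library and 0, 4 and 6 counts in CDAHFD libraries 1 to 3. In bulk tissue, more cells of a type and more RNA per cell cannot be told apart, and the part these cells have in the values below was not tested.

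Per length, Prdx1 was the most abundant of the 10 transcripts in both diets, at 603 ± 35.0 TPM in CDAHFD livers and 636 ± 42.8 TPM in ND livers (SD, n = 3 each). Gclc came next in both diets, at 196 ± 29.9 TPM in CDAHFD livers and 155 ± 48.8 TPM in ND livers. On CDAHFD, Hmox1 (164 ± 9.04 TPM) and Srxn1 (157 ± 41.8 TPM) followed within the spread of Gclc, above Gclm (91.2 ± 7.86 TPM), Nfe2l2 (73.6 ± 6.63 TPM), Txnrd1 (64.4 ± 10.1 TPM), Sod2 (56.3 ± 2.08 TPM), Gpx3 (49.6 ± 10.3 TPM) and Nqo1 (31.7 ± 9.67 TPM). Each neighbouring pair from Nfe2l2 down to Nqo1 overlapped over its 3 libraries, so that order is not fixed beyond the spread. On ND, Gclm (84.9 ± 10.9 TPM) and Sod2 (64.2 ± 2.85 TPM) came next, Txnrd1 (55.0 ± 6.25 TPM), Nfe2l2 (45.9 ± 12.6 TPM) and Srxn1 (42.0 ± 4.78 TPM) followed with overlapping neighbours from Sod2 down to Srxn1, Hmox1 stood at 30.1 ± 0.725 TPM, and Nqo1 (8.78 ± 3.88 TPM) and Gpx3 (7.91 ± 0.808 TPM) were lowest and overlapped.

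**Figure D1:**
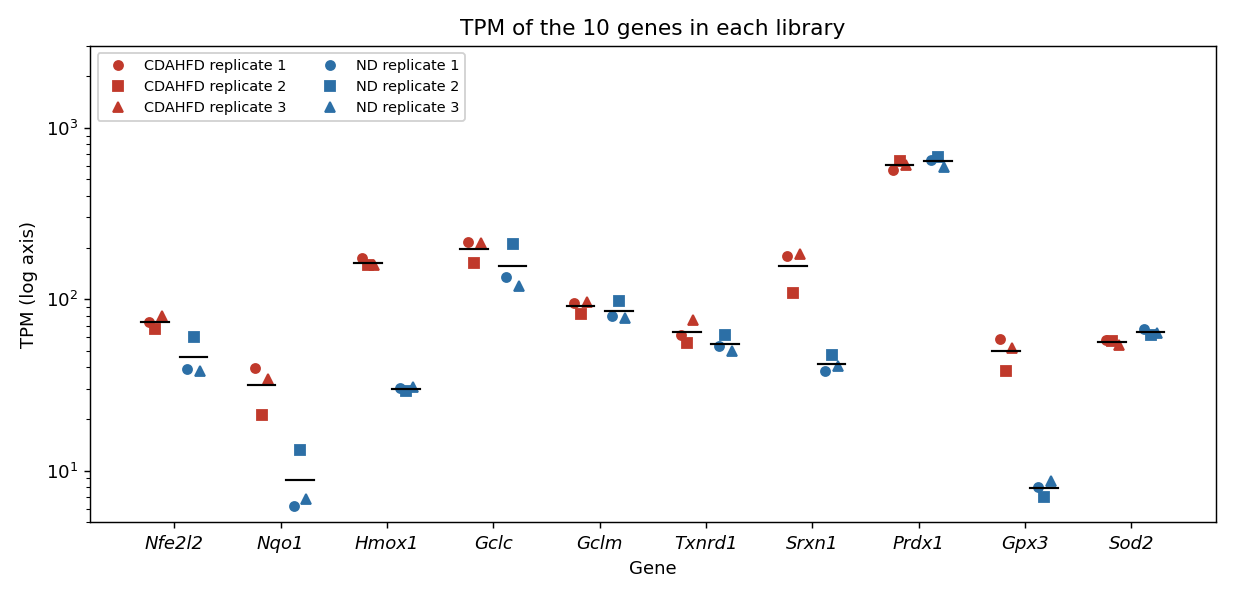
Deposited TPM on a log axis for the 10 genes, one point per library and a black line at the mean of each diet (n = 3). Nqo1, Hmox1, Srxn1 and Gpx3 have all CDAHFD libraries above all ND libraries, and so does Nfe2l2 on this scale, where its CDAHFD libraries start at 66.8 TPM and its ND libraries end at 60.4 TPM.

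The call of the regulator depended on the scaling and on 1 library. Nfe2l2 (ENSMUSG00000015839) had 89.2, 84.0 and 94.9 CPM in CDAHFD libraries 1 to 3 and 63.3, 89.6 and 61.3 CPM in ND libraries 1 to 3, where CPM are counts per 1000000 of the TMM-scaled library. The groups overlapped because ND replicate 2 lay among the CDAHFD libraries. The log2 change was 0.32 ± 0.14 (SE; adjusted p = 0.0791), and without ND replicate 2 it was 0.51 and passed (adjusted p = 0.00278). It also passed as higher with no filter on low counts (0.33, adjusted p = 0.0350), with total counts and hepatocyte markers (below), and on log2(TPM + 1), at 0.70 (adjusted p = 0.00614 with limma). Over all 18 alternatives the log2 change ran from 0.21 to 0.99, and 7 of them passed.

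Among the genes that control NRF2, 4 of 12 rose and 3 fell with TMM, 6 rose and 1 fell with total counts, and 9 and 0 with hepatocyte markers. In the same order, 28.5%, 44.0% and 66.5% of all genes tested were called higher, and 3347, 1147 and 377 of 14215 lower. Keap1, the sensor, had 41.6 ± 3.18 CPM in CDAHFD livers and 41.9 ± 6.39 CPM in ND livers and did not pass (-0.01 ± 0.13). Cul3, the ligase scaffold, fell by 0.70 ± 0.15 on the log2 scale, to 52.0 ± 4.68 CPM in CDAHFD livers against 84.6 ± 18.8 CPM in ND livers, a call lost with hepatocyte markers (-0.04) and with TPM (-0.31). Bach1, the competing repressor, fell by 0.41 ± 0.13 (adjusted p = 0.0225), to 46.2 ± 4.73 CPM in CDAHFD livers against 61.4 ± 10.1 CPM in ND livers, a call that was lost with total counts (-0.09), with TPM (-0.03) and with hepatocyte markers (0.27), and without CDAHFD replicate 3 (adjusted p = 0.0692) or ND replicate 1 (adjusted p = 0.107). The small MAF gene Mafk rose by 0.66 ± 0.17, with 29.9 ± 4.89 CPM in CDAHFD livers and 18.8 ± 3.89 CPM in ND livers. Tmem184a overlaps Mafk on the opposite strand and had 1546 counts in all beside 3469 for Mafk. Sqstm1, whose product p62 binds KEAP1 and draws it into autophagy, had 686 ± 138 CPM in CDAHFD livers and 476 ± 67.1 CPM in ND livers, a rise of 0.53 ± 0.16 (adjusted p = 0.0155). The Sqstm1 call was lost without CDAHFD replicate 1, CDAHFD replicate 3 or ND replicate 2, at adjusted p = 0.0531, 0.112 and 0.0621.

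Nqo1 (ENSMUSG00000003849), a quinone reductase that spends NAD(P)H and is widely used as an NRF2 target, had 19.6, 10.8 and 16.7 CPM in CDAHFD libraries 1 to 3 and 4.13, 8.04 and 4.50 CPM in ND libraries 1 to 3. The groups did not overlap, although CDAHFD replicate 2 was the lowest on its diet and ND replicate 2 the highest on its own. The log2 change was 1.5 ± 0.27 (adjusted p = 0.000749), and leaving out single libraries gave 1.27 to 1.85. Its counts were 485, 302 and 428 in CDAHFD libraries and 84, 164 and 90 in ND libraries.

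Srxn1 (ENSMUSG00000032802) encodes sulfiredoxin, which repairs peroxiredoxins whose active cysteine has been over-oxidized. It had 160, 102 and 162 CPM in CDAHFD libraries 1 to 3 and 45.6, 52.1 and 48.4 CPM in ND libraries 1 to 3. Every CDAHFD library lay well above the ND libraries, with CDAHFD replicate 2 again the lowest. The log2 change was 1.54 ± 0.17 (adjusted p = 1.90e-05).

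Hmox1 (ENSMUSG00000005413), the inducible heme oxygenase that splits heme into biliverdin, iron and carbon monoxide, is expressed strongly in macrophages as well as under NRF2 and BACH1 control. Its levels were 96.8, 91.5 and 86.8 CPM in CDAHFD libraries and 22.6, 20.04 and 22.7 CPM in ND libraries. These were tight groups, and Hmox1 did not share the low value of CDAHFD replicate 2 or the high value of ND replicate 2. The log2 change was 2.07 ± 0.11 (adjusted p = 1.15e-07). The macrophage markers given above rose alongside it, and their part in this change was not tested.

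Gpx3 (ENSMUSG00000018339), the secreted selenium-dependent glutathione peroxidase of plasma, had the largest change of the 10 genes. It had 33.8, 23.0 and 29.3 CPM in CDAHFD libraries 1 to 3 and 6.19, 5.00 and 6.65 CPM in ND libraries 1 to 3, with no overlap. The log2 change was 2.27 ± 0.17 (adjusted p = 1.36e-06), about 4.82-fold, from counts of 834, 643 and 753 in CDAHFD libraries and 126, 102 and 133 in ND libraries.

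The genes for the ligase that limits glutathione synthesis did not pass. Gclc (ENSMUSG00000032350), its catalytic subunit, had 256, 202 and 251 CPM in CDAHFD libraries 1 to 3 and 217, 311 and 191 CPM in ND libraries 1 to 3. The highest of all 6 values was that of ND replicate 2, and the log2 change was -0.02 ± 0.17 (adjusted p = 0.934). Gclm (ENSMUSG00000028124), its modifier subunit, had 189.8, 171 and 189.7 CPM in CDAHFD libraries and 214, 239 and 206 CPM in ND libraries. The Gclm values did not overlap, with CDAHFD lower, but the change of -0.26 ± 0.11 missed the threshold (adjusted p = 0.0616). It passed as lower with RLE scaling (adjusted p = 0.0450), with DESeq2 (0.0309) and without ND replicate 3 (0.0469), and passed as higher with the hepatocyte scaling described below (0.0192).

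Txnrd1 (ENSMUSG00000020250), the cytosolic thioredoxin reductase and a selenoprotein, had 139, 131 and 167 CPM in CDAHFD libraries 1 to 3 and 161, 171 and 149 CPM in ND libraries 1 to 3. The groups overlapped, and the change of -0.14 ± 0.12 did not pass (adjusted p = 0.347).

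Both genes that fell encode enzymes that remove reactive oxygen directly. Prdx1 (ENSMUSG00000028691), a cytosolic peroxiredoxin, had 549, 643 and 574 CPM in CDAHFD libraries 1 to 3 and 836, 801 and 760 CPM in ND libraries 1 to 3. Its groups did not overlap on this scale, and the log2 change was -0.44 ± 0.11 (adjusted p = 0.00620). Sod2 (ENSMUSG00000006818), the manganese superoxide dismutase of mitochondria, had 183, 190 and 168 CPM in CDAHFD libraries and 286, 242 and 269 CPM in ND libraries, without overlap. Its change was -0.56 ± 0.11 (adjusted p = 0.00133). Neither lower call held under every scaling, as follows.

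The calls of the 10 genes split by whether they depended on the scaling. Scaling by total counts moved the median of all genes up by 0.32 and raised the share of higher genes among all calls to 84.5%, against 54.8% with TMM. Scaling to 8 hepatocyte markers moved the median by 0.67 and the share to 96.2%. That scaling sets the markers' own median change near 0 (-0.015), and whether they are unchanged per hepatocyte was not tested. Nqo1, Hmox1, Srxn1 and Gpx3 were higher at adjusted p below 0.05 under all 18 alternatives tried, with log2 changes of 1.27 to 2.17, 1.99 to 2.75, 1.39 to 2.22 and 2.10 to 2.96. Prdx1 stood at -0.12 and Sod2 at -0.23 with total counts and at 0.23 and 0.12 with hepatocyte markers, and none of these passed. With total counts 5 of the 10 genes were higher, Nfe2l2 being added (0.65, adjusted p = 0.00294), and 0 were lower. There 44.0% of all genes tested were called higher, and 1147 of 14215 were called lower. With hepatocyte markers 8 were higher and 0 lower, where 66.5% of all genes were called higher and 377 of 14215 lower. Under neither scaling do the counts of the 10 genes stand far from those of all genes. The change under hepatocyte markers was 0.99 for Nfe2l2, 0.65 for Gclc, 0.41 for Gclm and 0.54 for Txnrd1. Relative to the median of all genes under that scaling, 0.69, Nfe2l2 was above and these 3 were below.

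**Figure D2:**
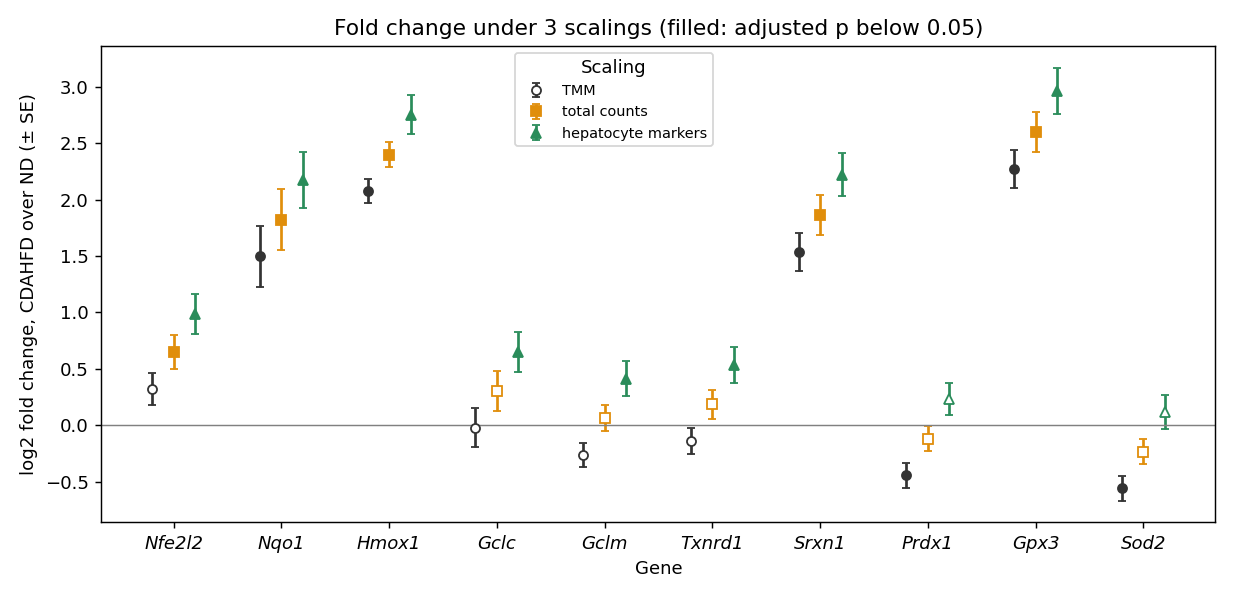
Log2 fold change of CDAHFD over ND with its standard error for each gene under TMM, total counts and hepatocyte marker scaling (n = 3 libraries per diet), filled where the adjusted p is below 0.05. Nqo1, Hmox1, Srxn1 and Gpx3 are filled and above 0 throughout, while Prdx1 and Sod2 are filled only with TMM.

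A pair of libraries stood apart for several of the genes. Nfe2l2, Nqo1, Gclc, Gclm, Txnrd1 and Srxn1 all had their highest ND value in ND replicate 2 and their lowest CDAHFD value in CDAHFD replicate 2. That order held for 6 of the 10 genes, beside 11.6% of all genes tested. This was noticed in the values and has no test. In ND replicate 2 the log2 CPM lay above the diet mean by 0.35 for Nfe2l2, 0.59 for Nqo1, 0.41 for Gclc and 0.13 for Gclm. In CDAHFD replicate 2 it lay at -0.09 for Nfe2l2, -0.49 for Nqo1, -0.22 for Gclc, -0.10 for Gclm and -0.44 for Srxn1. Hmox1, Gpx3 and Sod2 had their lowest ND value in ND replicate 2, at -0.12, -0.24 and -0.13, so the 10 genes did not move together within a diet. Without both libraries, a choice made after seeing these values, 5 of the 10 genes were higher, Nfe2l2 being added (0.54, adjusted p = 0.00453), and 2 were lower. Of the 14333 genes tested in that fit, 3606 (25.2%) were higher and 2867 lower. Nqo1 changed by 2.05 there.

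**Figure D3:**
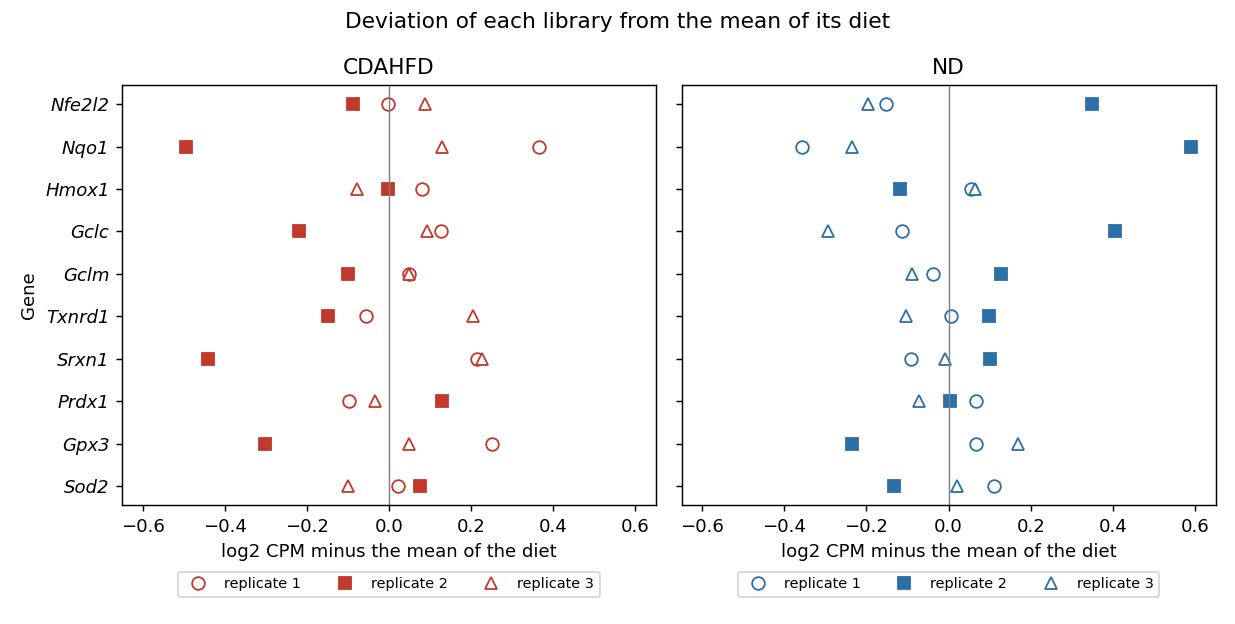
Log2 CPM of each library minus the mean of its diet, for the 10 genes, with replicate 2 filled. In ND, replicate 2 lies to the right for Nfe2l2 (0.35), Nqo1 (0.59) and Gclc (0.41); in CDAHFD, replicate 2 lies to the left for Nqo1 (-0.49) and Srxn1 (-0.44).

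Ratios of a pair of genes within a library do not depend on the scaling, and TPM changes them only by a factor for gene length. For 8 ratios the difference between diets was tested with a two-sided exact permutation test over the 6 libraries, which cannot go below p = 0.1 with 3 against 3. The ratio of Srxn1 to Prdx1, the repair enzyme to one of its substrates, was 0.315, 0.171 and 0.304 of TPM in CDAHFD libraries 1 to 3 and 0.0589, 0.0702 and 0.0687 in ND libraries 1 to 3, a log2 difference of 1.95 (exact p = 0.1). Hmox1 to Hmox2, the inducible to the constitutive heme oxygenase, was 2.64, 2.49 and 2.30 in CDAHFD libraries and 0.547, 0.524 and 0.491 in ND libraries, a log2 difference of 2.25 (exact p = 0.1). Cdip1 overlaps Hmox2 on the opposite strand and had 16365 counts in all beside 6904 for Hmox2, so the level of Hmox2, and with it which of the pair was more abundant, is uncertain.

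The ratio of Nqo1 to Nfe2l2 was higher on CDAHFD by 1.17 on the log2 scale, with no overlap, at 0.538, 0.314 and 0.429 in CDAHFD libraries and 0.159, 0.219 and 0.179 in ND libraries (exact p = 0.1). The ratio of the repressor gene Bach1 to Nfe2l2 was 0.317, 0.373 and 0.269 in CDAHFD libraries and 0.698, 0.415 and 0.517 in ND libraries, a log2 difference of -0.75, also without overlap (exact p = 0.1). Sod2 to Sod1, the mitochondrial to the cytosolic dismutase, differed by 0.26 without overlap, at 0.154, 0.131 and 0.126 in CDAHFD libraries and 0.115, 0.116 and 0.110 in ND libraries (exact p = 0.1). Gpx3 to Gpx1 differed by 1.76 (exact p = 0.1), but Gpx1, known as an abundant liver enzyme, was counted at only 9.13 ± 3.39 CPM in CDAHFD livers and 6.36 ± 1.96 CPM in ND livers, so its denominator is uncertain. Gclc to Gclm was 2.26, 1.97 and 2.21 in CDAHFD libraries and 1.69, 2.17 and 1.55 in ND libraries (log2 difference 0.26, exact p = 0.2), and Txnrd1 to its substrate gene Txn1 differed by -0.31 (exact p = 0.3), both with overlap. After Benjamini-Hochberg adjustment over the 8 ratios the smallest value was 0.133, which this design cannot improve on when 6 ratios share the smallest p.

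**Figure D4:**
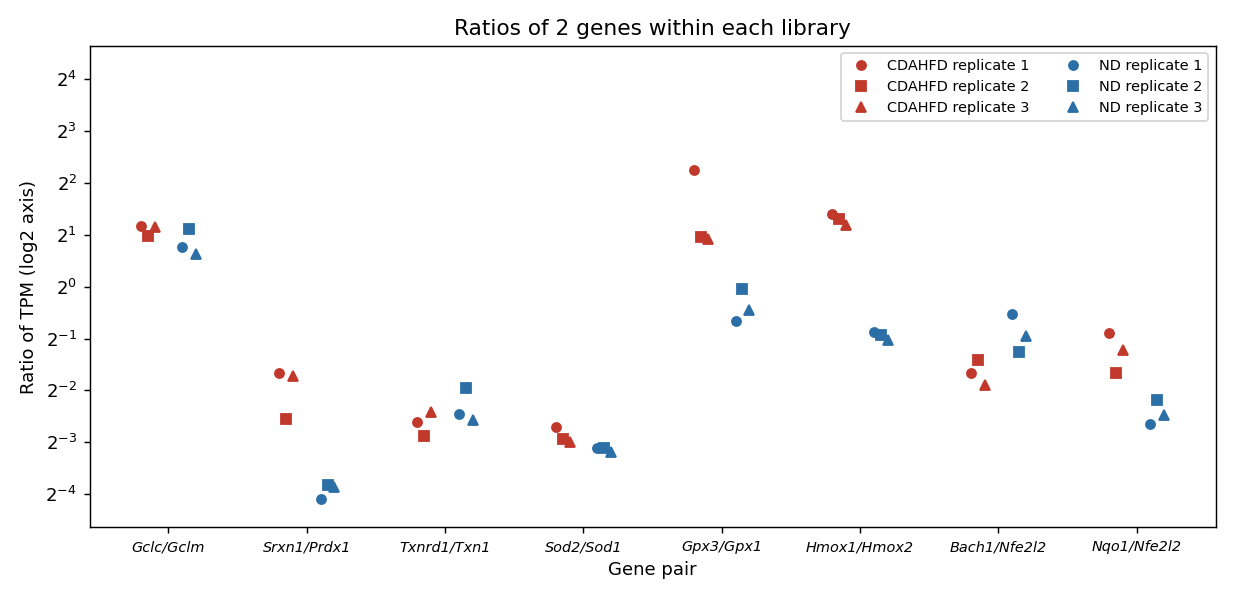
Ratio of TPM of a pair of genes in each library, on a log2 axis, for CDAHFD and ND (n = 3 each). The 2 diets do not overlap for Srxn1/Prdx1, Sod2/Sod1, Gpx3/Gpx1, Hmox1/Hmox2, Bach1/Nfe2l2 and Nqo1/Nfe2l2, and overlap for Gclc/Gclm and Txnrd1/Txn1.

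The wider pathway was read from 9 lists of 93 other genes, of which 91 were tested. Of these 30 rose and 27 fell with TMM, beside 28.5% and 23.5% of all genes, and the median was -0.02. Total counts gave 41 higher and 12 lower, where 44.0% of all genes were called higher and 1147 of 14215 lower. Hepatocyte markers gave 59 and 4, where 66.5% of all genes were called higher and 377 of 14215 lower. The counts of each list below stand beside these same shares of all genes. Among 26 tested NRF2 targets 9 rose and 7 fell with TMM, 11 and 5 with total counts and 17 and 1 with hepatocyte markers. Slc7a11, the cystine importer that feeds glutathione synthesis, had 103, 126 and 108 counts in CDAHFD libraries 1 to 3 and 1, 1 and 0 in ND libraries 1 to 3. The ratio of its summed and scaled counts was 131, with a 95% interval of 35.9 to 1084 that covers counting error only. Cbr3, a carbonyl reductase, rose by 3.47 ± 0.32 to 7.15 ± 2.55 CPM in CDAHFD livers, against 0.642 ± 0.105 CPM in ND livers. Gsta1, a glutathione S-transferase with close paralogs among which reads may be split, rose by 3.46 ± 0.32. These 3 were named for the largest changes of the list, and all were at a low level. More abundant targets were called in both directions with TMM. Osgin1 had 417 ± 103 CPM in CDAHFD livers and 138 ± 23.8 CPM in ND livers. Fth1 had 2645 ± 189 CPM in CDAHFD livers and 1852 ± 41.7 CPM in ND livers. Gstp1 fell to 774 ± 81.3 CPM in CDAHFD livers, against 2035 ± 539 CPM in ND livers. Mgst1 fell to 1903 ± 255 CPM in CDAHFD livers, against 3631 ± 198 CPM in ND livers. The list's median was 0.002 with TMM. Its summed level over 27 genes was 14667 to 19169 TPM in CDAHFD livers and 16274 to 17446 TPM in ND livers, which overlap.

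The NADPH list, which supplies the electrons for Nqo1, Txnrd1 and glutathione reductase, split. Of the pentose phosphate enzymes G6pdx, Pgd and Tkt rose and Taldo1 did not pass (0.21 ± 0.14). G6pdx rose by 1.94 ± 0.14 to 17.2 ± 0.799 CPM in CDAHFD livers, against 4.46 ± 0.420 CPM in ND livers, and Pgd by 1.59 ± 0.14 to 112 ± 19.0 CPM in CDAHFD livers, against 37.1 ± 4.58 CPM in ND livers. Ikbkg overlaps G6pdx on the opposite strand and had 7506 counts in all beside 1613, and the strand setting of the counting is not given, so the G6pdx values are uncertain. The malic enzyme gene Me1 had 30.8 ± 4.94 CPM in CDAHFD livers and 191 ± 60.7 CPM in ND livers. In all 3 of the 6 NADPH genes rose and 2 fell with TMM, and 4 rose and 2 fell with total counts and with hepatocyte markers.

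In glutathione synthesis and cycling 4 of 12 tested genes rose and 3 fell with TMM, against 5 and 0 with total counts and 7 and 0 with hepatocyte markers. Gss, which joins glycine to the product of the ligase, rose by 0.32 ± 0.11 (adjusted p = 0.0326), and Acss2, which overlaps it on the opposite strand, had 11005 counts in all beside 9687 for Gss. The Gss call was lost without CDAHFD replicate 1, CDAHFD replicate 3, ND replicate 1 or ND replicate 2 (adjusted p = 0.0598 to 0.196). The extracellular enzymes Dpep1 and Ggt5, which take apart glutathione and its conjugates, rose by 1.70 ± 0.30 and 1.35 ± 0.21 from a low level, at 3.18 ± 0.0513 and 5.65 ± 0.794 CPM in CDAHFD livers, against 0.974 ± 0.430 and 2.22 ± 0.477 CPM in ND livers. Chac2, which degrades glutathione, fell by 0.70 ± 0.16 with TMM, a call lost with total counts (-0.38) and with hepatocyte markers (-0.04). Asb3 overlaps Chac2 on the opposite strand and had 779 counts in all beside 2226 for Chac2.

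Of the other glutathione peroxidases 3 of 4 rose under TMM, and all 4 with total counts and hepatocyte markers. Gpx4, which reduces lipid hydroperoxides in membranes, rose by 0.76 ± 0.12 to 476 ± 64.97 CPM in CDAHFD livers, against 281 ± 8.27 CPM in ND livers. Gpx7 and Gpx8, the peroxidases of the endoplasmic reticulum, rose by 1.92 ± 0.21 and 2.15 ± 0.36, at 8.01 ± 1.79 and 2.28 ± 0.414 CPM in CDAHFD livers, against 2.10 ± 0.234 and 0.512 ± 0.292 CPM in ND livers.

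Of 15 peroxiredoxin and thioredoxin genes 2 rose and 6 fell with TMM, but 5 rose and 0 fell with total counts and 9 and 0 with hepatocyte markers. With TMM, total counts and hepatocyte markers, 28.5%, 44.0% and 66.5% of all genes tested were called higher, and 3347, 1147 and 377 of 14215 lower. The list's median was -0.17, 0.15 and 0.51 in the same order. Txnip, the thioredoxin-binding inhibitor, fell by 0.80 ± 0.20 with TMM, Txnrd3 by 0.61 ± 0.14 and Prdx6 by 0.53 ± 0.12, and each of these calls was lost with total counts. Txn1 did not pass (0.15 ± 0.13) with TMM.

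Of Sod1, Sod3, Cat and Ccs, 3 fell and 1 rose with TMM, 2 and 1 with total counts and 1 and 1 with hepatocyte markers. Cat, the peroxisomal catalase, fell by 1.08 ± 0.13 to 2041 ± 244 CPM in CDAHFD livers, against 4318 ± 226 CPM in ND livers. Sod1 fell by 0.82 ± 0.12, and its call was lost only under the hepatocyte scaling among the scalings tried (-0.14). Sod3, the extracellular dismutase, rose by 1.55 ± 0.14 to 103 ± 3.37 CPM in CDAHFD livers, against 35.1 ± 7.27 CPM in ND livers.

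Beside Hmox1, 4 of 6 genes of heme handling rose and 0 fell with TMM, 5 and 0 with total counts and 6 and 0 with hepatocyte markers. Hpx and Hp, the plasma carriers of heme and hemoglobin and both acute phase proteins, rose by 1.01 ± 0.18 and 1.00 ± 0.17. Slc48a1, which exports heme from the phagolysosome, rose by 0.82 ± 0.13. Hdac7 overlaps Slc48a1 on the opposite strand and had 1642 counts in all beside 10682 for Slc48a1. Hmox2, which Cdip1 overlaps on the opposite strand, did not pass (-0.18 ± 0.10). Of 6 genes that supply selenoproteins, the class to which Txnrd1 and Gpx3 belong, 0 rose and 3 fell with TMM: Sephs2 by 0.74 ± 0.14, Sepsecs by 0.68 ± 0.12 and Secisbp2 by 0.56 ± 0.12. With total counts 2 fell, and with hepatocyte markers 2 rose and 0 fell. Selenop, the selenium carrier secreted by the liver, did not pass (-0.01 ± 0.16).

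**Figure D5:**
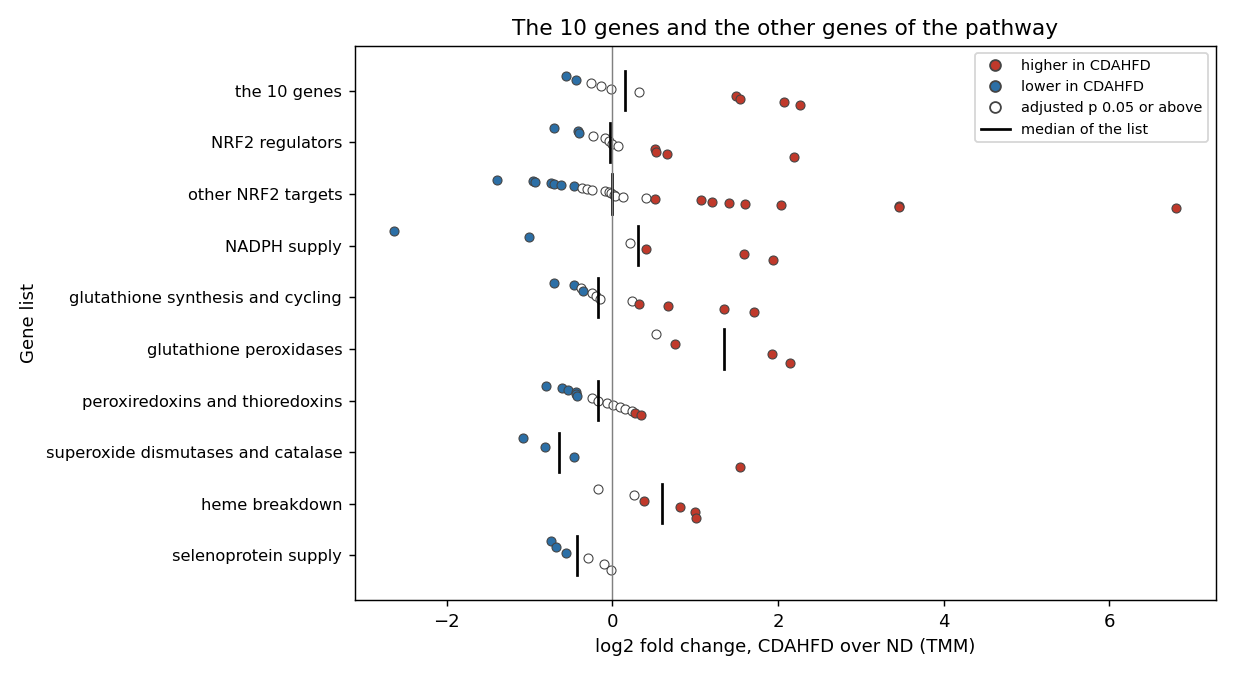
Log2 fold change of CDAHFD over ND (TMM) for the 10 genes and the 91 other tested genes by list, red where higher, blue where lower and white where the adjusted p is 0.05 or above, with a black line at the median. The median of the 10 genes is 0.15, that of the glutathione peroxidases 1.34 and that of the superoxide dismutases and catalase -0.64.

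The genes whose pattern over the 6 libraries was most like that of Nfe2l2, by Pearson's r of log2 CPM among 7907 genes of at least 10 CPM, were Asxl1 (0.992), Mob3b (0.990) and Rnf141 (0.989). For Nqo1 they were Rhoa (0.993), Ybx3 (0.992) and Cyp2a4 (0.992), the last with a close paralog, Cyp2a5, that may share its reads. These libraries share their diets and scaling, so the values only rank likeness, and 31 genes exceeded 0.95 for Nfe2l2 and 116 for Nqo1.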

How the data were processed

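Liver RNA of 3 CDAHFD and 3 ND samples was extracted with TRIzol and made into stranded mRNA libraries, per the labels' protocols. STAR 2.7.11a and build GRCm39 are named in the submitters' processing notes; for the counting tool, annotation and strand setting, nothing is stated in those sources. The authors deposited whole-number read counts per Ensembl gene, and TPM that sum to 1000000 per library. Depth was 21986215 to 25628531 counts. Symbols were matched for 51911 of 56847 IDs; no file column was left unused. Genes that overlap the 10 genes in the GENCODE annotation and were counted held at most 71 counts each over all libraries, but reads shared by paralogs or pseudogenes are assigned by rules not given here. Because the reference is of GRCm38, only names, neighbours and RefSeq promoter sequences were taken from it.

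Counts were filtered with filterByExpr (minimum count 10), scaled by TMM and fitted with edgeR 4.0.16 in R 4.3.3 (quasi-likelihood, diet as the term, all 6 libraries, Benjamini-Hochberg over 14215 genes, threshold 0.05); a fold change is CDAHFD over ND and its SE is the coefficient over the root of F. Hepatocyte scaling used the median ratio of 8 markers. Libraries within a diet differed beyond sampling noise (chi-square per degree of freedom 17.5 to 39.7, where 1 is sampling noise), so none was a repeat deposit. The pipeline was tested on simulated data. The 10 genes and all lists were chosen with earlier results of these data known. Named genes are the 10, up to 3 passing genes with the largest change and at least 1 CPM in each list, each list's first gene, both genes of each ratio and the 3 most alike to Nfe2l2 and Nqo1. Osgin1, Fth1, Gstp1 and Mgst1 were added for their higher level and are not among the 50 refitted genes. DESeq2 1.42.0, limma 3.58.1 and the other alternatives are given in the closing section.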

Additional observations from a re-analysis of the deposited data

How the results depend on the processing

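The alternatives were RLE scaling, total counts, TMM without the 20 most abundant genes, hepatocyte markers, no filter, a filter of 1 CPM in 3 libraries, DESeq2, limma-voom, limma with TPM on the log2 scale (pseudocount 1 or 0.1), a replicate block, each library left out, and, chosen after seeing the data, both replicate 2 libraries left out. Of the 10 genes, 8 were called higher with hepatocyte markers, and 0 lower there, with total counts and with either TPM fit, against 4 and 2 in the main result. Of the 91 other genes, 59 were higher with hepatocyte markers, against 30 in the main result. In that set 12 were lower with total counts, 4 with hepatocyte markers and 9 with either TPM fit, against 27. Of all 14215 genes tested, 1147 were lower with total counts, 377 with hepatocyte markers and 897 with either TPM fit, against 3347. Leaving out single libraries gave 4 to 5 of the 10 genes higher and 2 to 3 lower. In these fits 24.4% to 28% of all genes tested were called higher, and 2871 to 3416 of 14423 to 14670 lower. Of 900 refitted values over 50 named genes, 772 kept direction and side of the threshold, 44 lost it, 38 gained it and 46 changed sign. Sign changes with total counts were to 0.30 (Gclc), 0.065 (Gclm), 0.19 (Txnrd1), 0.32 (Keap1), 0.15 (Hmox2) and 0.31 (Selenop). With hepatocyte markers they were to 0.65 (Gclc), 0.41 (Gclm), 0.54 (Txnrd1), 0.23 (Prdx1), 0.12 (Sod2), 0.67 (Keap1), 0.50 (Hmox2), 0.66 (Selenop), 0.065 (Txnrd3), 0.14 (Prdx6), 0.12 (Secisbp2) and 0.27 (Bach1). On log2(TPM + 1) and log2(TPM + 0.1) they were to 0.37 and 0.37 (Gclc), 0.11 and 0.11 (Gclm), 0.22 and 0.22 (Txnrd1), 0.35 and 0.36 (Keap1), 0.19 and 0.19 (Hmox2) and 0.34 and 0.34 (Selenop). Values near 0 also turned: Gclc to 0.0029, Keap1 to 0.013 and Selenop to 0.0081 with the stricter filter, Gclc to 0.0042 and Keap1 to 0.000255 with limma-voom, and Gclc to 0.0056 with the replicate block. Leaving out libraries gave -0.17 to 0.29 for Gclc (0.20 without ND replicate 2, 0.29 without both replicate 2 libraries), -0.15 to 0.051 for Keap1, -0.18 to 0.079 for Selenop and -0.044 to 0.21 for Txn1. The cause was not tested. The 8 ratios kept their sign with each library left out.

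Replicate numbers are not said to pair the samples. Deviations of same-numbered libraries correlated at -0.05, 0.07 and 0.12, and 3 of 6 libraries matched their own number best. With 3 libraries per diet these values cannot decide whether the numbers pair samples. With the number as a replicate block 7357 genes passed, against 7404 without it, with 4 of the 10 genes higher and 2 lower. A change that misses the threshold with 3 libraries per diet is not shown to be absent.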
